A study of Mus musculus with 16 samples.

Results

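The contrast of liver with quadriceps muscle was read within the mice given Yap1S5A, from 8 of the 16 libraries of the study: 4 of liver and 4 of quadriceps, chosen by their sample titles and not by any measured value. The other 8 libraries, 4 livers and 4 quadriceps of mice given green fluorescent protein (GFP), supplied the same tissue contrast under the control vector. All 16 were total RNA from frozen bulk tissue of male C57BL6/J mice (Mus musculus) aged 12 to 14 weeks, taken on day 7 after infection with an adeno-associated virus labelled AAV-DJ8-TGB-Yap1S5A or AAV-DJ8-TGB-EGFP. Every library therefore came from an animal that had received a virus, and none was untreated. The series' design text speaks of hepatic expression, but the labels explain neither TGB nor the cell types that the vector reaches. A treatment text attached to the same samples describes sham surgery and partial hepatectomy, which conflicts with the titles, and the groups follow the titles.

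Yap1 is a transcriptional coactivator of the Hippo pathway. The kinases Lats1 and Lats2 phosphorylate it on serines and keep it out of the nucleus, and Yap1S5A carries alanines in place of those serines, so that it stays active and drives genes through the TEAD DNA-binding proteins. Tissue identity in liver rests on a network of hepatocyte factors such as Hnf4a, Cebpa and the Foxa proteins, which drives plasma proteins, the urea cycle, bile acid synthesis and drug metabolism. In skeletal muscle the myogenic factors Myod1, Myog and Myf6, together with Mef2 proteins, drive the sarcomere, the calcium release apparatus and the creatine kinase system.

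The promoters of 3 genes stand for the 3 programmes that the contrast bears on: Alb (albumin) for liver identity, Ckm (muscle creatine kinase) for muscle identity, and Cyr61 (Ccn1 in RefSeq), a secreted matrix protein and textbook YAP-TEAD target. Each stretch is the 250 bases before the transcription start in RefSeq, build GRCm38.p6, written 5′ to 3′ along the gene's own strand: Alb on the plus strand at chr5:90460620-90460869, Ckm on the plus strand at chr7:19410844-19411093 and Cyr61 on the minus strand at chr3:145649986-145650235. Capitals mark the motifs found in each.
Alb promoter: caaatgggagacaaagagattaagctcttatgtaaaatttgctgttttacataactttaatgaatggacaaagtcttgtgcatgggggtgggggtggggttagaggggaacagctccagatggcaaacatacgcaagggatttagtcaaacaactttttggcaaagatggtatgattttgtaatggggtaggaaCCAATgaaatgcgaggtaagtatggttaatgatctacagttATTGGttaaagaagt
Ckm promoter: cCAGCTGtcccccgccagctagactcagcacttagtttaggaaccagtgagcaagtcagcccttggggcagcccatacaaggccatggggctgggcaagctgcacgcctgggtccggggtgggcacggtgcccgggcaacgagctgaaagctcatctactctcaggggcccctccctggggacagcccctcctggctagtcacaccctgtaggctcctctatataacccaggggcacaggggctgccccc
Cyr61 promoter: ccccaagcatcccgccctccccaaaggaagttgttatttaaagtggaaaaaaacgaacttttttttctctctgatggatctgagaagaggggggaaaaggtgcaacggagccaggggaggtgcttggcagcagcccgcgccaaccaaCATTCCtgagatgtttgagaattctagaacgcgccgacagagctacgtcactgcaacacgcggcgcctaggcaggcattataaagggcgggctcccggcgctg
The Alb promoter held 2 CCAAT boxes, an element of many promoters, 1 read as CCAAT with its first base 56 bases before the start and 1 on the opposite strand, printed as ATTGG, with its first base 15 bases before the start. The letters CCAAT stand on either strand in 34.5% of the 27025 RefSeq promoters of the same length. It held no CAAAGTCCA, an HNF4 element found in 0.381% of them. The Ckm promoter held the E-box CAGCTG, which 12.8% hold and which myogenic factors are known to bind, with its first base 249 bases before the start. The MEF2 element, CTA and TAG with any 4 bases between them, which 3.23% hold, was not found in that window. The Cyr61 promoter held GGAATG, the TEAD element, on the opposite strand, so that it is printed as CATTCC, with its first base 103 bases before the start; 12.6% of promoters hold it. Both strands were searched and no 2 of these motifs overlapped in the windows shown.

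Library totals ran from 13817718 to 19215472 counts, and from 15696665 to 19215472 in the 8 Yap1S5A-labelled libraries. Levels are CPM, counts scaled to a library size adjusted by the trimmed mean of M-values (TMM). Each tissue carried its own markers: the summed level of 10 hepatocyte markers was 146306 to 162467 CPM in the Yap1S5A-labelled livers, and that of 10 muscle fibre markers was 164591 to 197478 CPM in the Yap1S5A-labelled quadriceps. The hepatocyte sum in the Yap1S5A-labelled quadriceps was 224, 109.3, 55.7 and 43.2 CPM, against 41.7 to 57.2 CPM in the GFP-labelled quadriceps, so that quadriceps replicates 1 and 2 stood above all the others. All 10 hepatocyte markers were detected in the Yap1S5A-labelled quadriceps as a group, and in the GFP-labelled quadriceps only Ass1 had no count. The muscle fibre sum in livers was 63.4, 39.1, 35.4 and 118 CPM under Yap1S5A and 50.6, 109.8, 339.5 and 141.1 CPM under GFP, highest in GFP-labelled liver replicate 3. The part of these traces in the tissue contrasts was not tested, and several results are also given without such a library. The ribosomal precursor transcript Rn45s took 16.6, 15, 16.8 and 6.13% of counts in the Yap1S5A-labelled quadriceps and 4.23 to 4.81% in the livers of that vector.

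**Figure D1:**
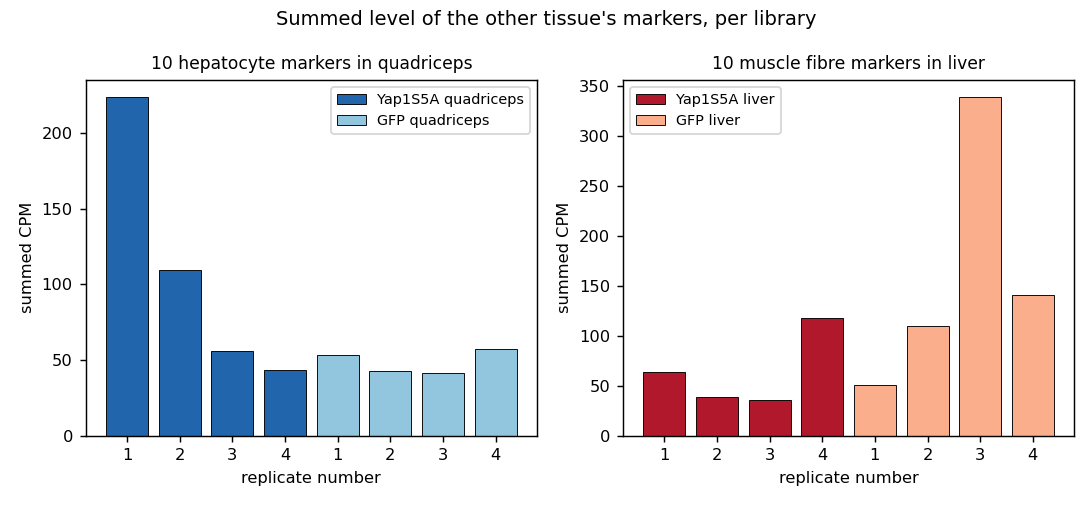
Summed level of the other tissue's markers in each library, in CPM on a linear axis from 0; the left panel gives 10 hepatocyte markers in quadriceps, the right panel 10 muscle fibre markers in liver, and each bar is 1 library. Yap1S5A quadriceps replicates 1 and 2 (224 and 109.3 CPM) stand above the other 6 quadriceps libraries, and GFP liver replicate 3 (339.5 CPM) stands above the other 7 livers.

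Yap1 (chromosome 9, 7932001 to 8004596, build mm10, as for all gene positions here) was at 41.8, 46.3, 48.4 and 50.2 CPM in the Yap1S5A-labelled livers and 77.5, 84.5, 94.3 and 78.1 CPM in the matching quadriceps. The GFP-labelled libraries gave 67.5, 67.9, 64 and 76.3 CPM in the GFP-labelled livers and 76.4, 72.4, 64 and 67.9 CPM in the matching quadriceps. The Yap1S5A-labelled livers were thus below every other library. In quadriceps the lowest Yap1S5A-labelled library (77.5 CPM) stood just above the highest GFP-labelled one (76.4 CPM). The log2 fold of liver over quadriceps was -0.84 ± 0.11 (SE) under Yap1S5A and -0.03 ± 0.10 under GFP, and the difference of -0.81 ± 0.15 had an adjusted p of 0.00015 (edgeR's quasi-likelihood test with Benjamini-Hochberg adjustment, as for all adjusted p-values here). The labels do not give the species or coding sequence of the transgene, so a count of mouse Yap1 need not include it and does not check the vector label; groups are called by their labels throughout. Its paralogue Wwtr1 (Taz), picked after its values were seen, had log2 folds of -0.39 ± 0.12 under Yap1S5A and -1.27 ± 0.13 under GFP, and the difference of 0.88 ± 0.17 had an adjusted p of 0.0003.

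Of 13669 genes tested, 6120 (44.8%) were higher in liver and 5061 (37%) higher in quadriceps under Yap1S5A, together 81.8%. Under GFP the calls were 5356 (39.2%) and 5372 (39.3%), together 78.5%. With at least 2-fold difference also required, the Yap1S5A contrast kept 4484 genes (32.8%) on the liver side and 3430 (25.1%) on the quadriceps side, against 3794 (27.8%) and 3735 (27.3%) under GFP. All 4 Yap1S5A-labelled livers lay above all 4 quadriceps of that vector in 5867 genes (42.9%), and below them in 4833 (35.4%), so that 78.3% did not overlap. Under GFP the shares were 35.8% and 36.2%, together 72%. Across the genes tested the log2 folds of both contrasts had a Spearman correlation of 0.815 and a Pearson correlation of 0.883, a description over genes that are not independent, in contrasts that share no library. The tissue axis took 85% of the variance of the 16 libraries on the first principal component and the next component 10.3%. In bulk tissue, fewer cells of a type and less RNA per cell cannot be told apart, in any of these results.

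The tissue contrast itself differed between the vectors, by the interaction of vector and tissue, in 6556 genes (48%): 3481 (25.5%) with a more liver-sided contrast under Yap1S5A and 3075 (22.5%) with a more quadriceps-sided one. Genes were sorted by the 3 calls. Those called in both contrasts in the same direction with no call on the difference, here "kept", numbered 5035 (36.8%), of which 2665 (19.5%) were liver-high and 2370 (17.3%) quadriceps-high. Another 1859 (13.6%) narrowed, that is, were called in both in the same direction with a smaller contrast under Yap1S5A, on the liver side for 7.4% of genes and on the quadriceps side for 6.2%. The 994 that widened (7.27%) split into 3.69% and 3.58%. Calls in opposite directions were found for 662 genes (4.84%). Of these, 442 (3.23%) were quadriceps-high under GFP and liver-high under Yap1S5A, and 220 (1.61%) went the other way. For 781 (5.71%) the contrast was "erased", meaning at least 2-fold and called under GFP, with the difference called and the whole 95% interval of the Yap1S5A contrast within 2-fold; under GFP 324 (2.37%) of these were liver-high and 457 (3.34%) quadriceps-high. For 819 (5.99%) it was "new", the converse, with 360 (2.63%) liver-high and 459 (3.36%) quadriceps-high. The remaining 3519 (25.7%) met none of these definitions, and a gene that met 2 was counted as erased or new. Without Yap1S5A-labelled liver replicate 1 or 2 the share of more liver-sided genes among all called differences was 42.9% or 43.8%, against 53.1% with all 16.

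**Figure D2:**
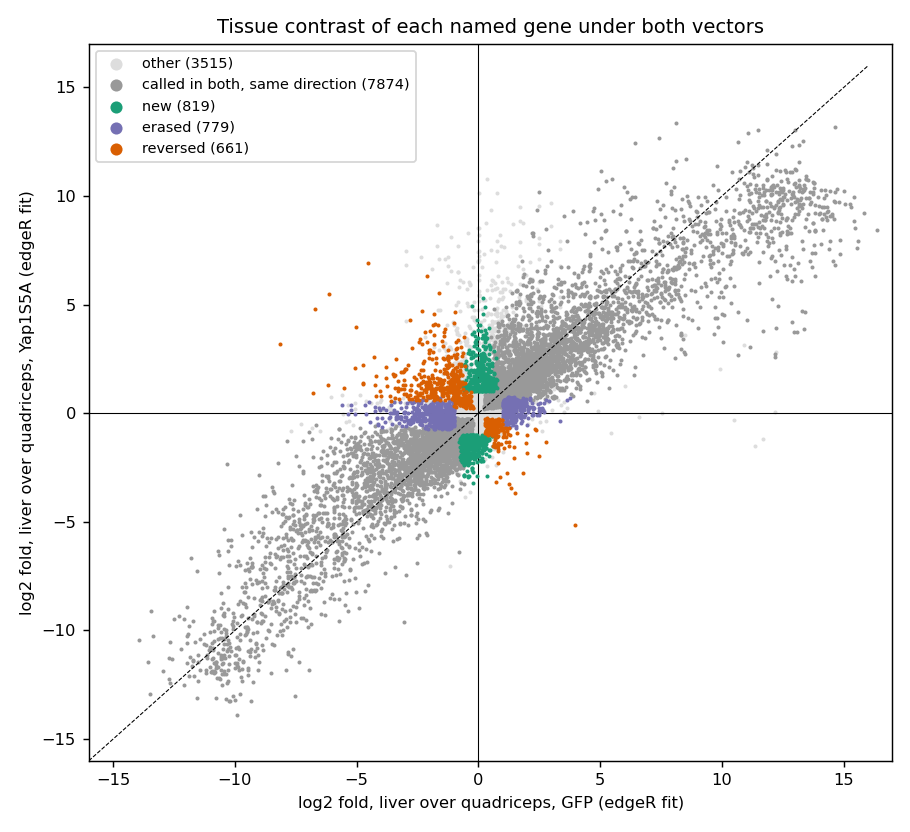
Log2 fold of liver over quadriceps under GFP (x axis) and under Yap1S5A (y axis), 1 point per gene with a usable symbol, coloured by class; folds are those of the edgeR fit, which for a gene with no count in a group depend on a small added count. Most points (7874) lie in the 2 quadrants where the direction is shared, the 661 reversed genes lie in the other 2, and the dashed line marks equal contrasts.

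The most tissue-restricted genes kept their side. Of 981 genes (7.18% of those tested) called at least 32-fold higher in liver under GFP, 969 (98.8%) were still called liver-high under Yap1S5A and the other 12 were not called. Still 32-fold or more were 748 (76.2%), and the median log2 fold was 8.62 under GFP and 7.25 under Yap1S5A. Of 858 genes (6.28%) 32-fold higher in quadriceps under GFP, 832 (97%) were still called quadriceps-high, 17 were not called, 9 were called liver-high and 599 (69.8%) were still 32-fold, with medians of -7.55 and -6.69. Since a threshold passed under 1 vector favours that vector, the sets were also chosen the other way. Of 1004 genes (7.35%) 32-fold higher in liver under Yap1S5A, 883 (87.9%) were called liver-high under GFP and 748 (74.5%) were 32-fold there, and of 653 (4.78%) in quadriceps 651 (99.7%) were called and 599 (91.7%) were 32-fold. With genes that had no count in a group set to the fold that a floor of 3 counts over the group allows, 73.7% of 935 liver genes and 69% of 797 quadriceps genes chosen under GFP were still 32-fold. Without Yap1S5A-labelled quadriceps replicates 1 and 2 the liver share was 80.3%.

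As a share of all tested counts, the 981 liver-restricted genes took 46.1, 45.7, 44 and 43.9% of the Yap1S5A-labelled livers and 50.4, 55.4, 47.1 and 49.8% of the GFP-labelled livers, which do not overlap. In the quadriceps they took 0.303, 0.222, 0.175 and 0.198% under Yap1S5A and 0.128, 0.164, 0.183 and 0.144% under GFP, which overlap. The 858 quadriceps-restricted genes took 41.4, 44.8, 43 and 47.4% of the Yap1S5A-labelled quadriceps and 50.4, 50.5, 45.9 and 48.9% of the GFP-labelled quadriceps, which overlap. In the livers their share was 0.29, 0.322, 0.291 and 0.369% under Yap1S5A and 0.0831, 0.11, 0.161 and 0.104% under GFP, so that all 4 Yap1S5A-labelled livers were higher. These sets were chosen under GFP, and the shares are descriptions.

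Among genes at least 32-fold apart with no overlap of the 8 Yap1S5A-labelled libraries, the 12 liver-high genes of greatest counts per kilobase of exon were all secreted plasma proteins: Alb, Trf (transferrin), Apoa1 and Apoe (apolipoproteins), Ahsg (fetuin-A), Gc (vitamin D binding protein), Hp (haptoglobin), Hpx (hemopexin), C3 (complement), Mup20 (a major urinary protein) and the protease inhibitors Serpina1b and Serpina1c. Reads of Mup20, Serpina1b and Serpina1c can fall on near-identical copies, so their values are uncertain. Alb (chromosome 5, 90460889 to 90476603) was at 123632, 122000, 105187 and 108295 CPM in the Yap1S5A-labelled livers and 113, 49.6, 20.8 and 15.1 CPM in the matching quadriceps. With the other vector it was at 110679, 99348, 95644 and 95665 CPM in the GFP-labelled livers and 30.3, 15.9, 11.9 and 17.4 CPM in the matching quadriceps. Every liver lay far above every quadriceps library, and Yap1S5A-labelled quadriceps replicates 1 and 2 held the most Alb of the 8 muscles. Its log2 fold was 11.17 ± 0.96 under Yap1S5A and 12.38 ± 1.0 under GFP, and the difference of -1.20 ± 0.89 had an adjusted p of 0.28. Alb, Trf, Gc and Hp were kept, C3 widened (difference 0.93 ± 0.38, adjusted p = 0.048) and the other 7 narrowed. The C3 call was lost with RLE factors, the deposited library sizes, the replicate block (adjusted p = 0.14) or a length trend taken out (adjusted p = 0.19). It was also lost with any 1 of the Yap1S5A-labelled livers or GFP-labelled quadriceps left out, or Yap1S5A-labelled quadriceps replicate 2, 3 or 4. Its adjusted p under DESeq2 was 3.3e-06. Without Yap1S5A-labelled quadriceps replicates 1 and 2 the calls on Hpx (0.0061, adjusted p = 1 in place of 0.045), Apoa1 (-0.64, adjusted p = 0.27) and Ahsg (-1.26, adjusted p = 0.053) were lost. The Hpx call was also lost under the replicate block (adjusted p = 0.11), upper-quartile factors (adjusted p = 0.053) and a length trend taken out (adjusted p = 0.13). Leaving out single libraries of each of the groups also lost it.

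All 34 genes listed as hepatocyte plasma proteins were called liver-high under both vectors, against 44.8% of all genes under Yap1S5A and 39.2% under GFP. All 34 were at least 32-fold higher in liver under both. The median log2 fold was 9.86 under Yap1S5A and 12.38 under GFP, and 23 narrowed. Among those, Ttr (transthyretin, a thyroid hormone carrier) fell from 3494 ± 635 CPM (mean ± SD, n = 4) in GFP-labelled livers to 895 ± 171 CPM in Yap1S5A-labelled livers, with a difference of contrasts of -5.21 ± 0.74 (adjusted p = 1.2e-05). Apoa2 showed -5.68 ± 0.71 (adjusted p = 2.4e-06) and Apoc3, an inhibitor of triglyceride clearance, -6.02 ± 0.95 (adjusted p = 4.5e-05). A difference of contrasts is the vector difference in liver minus that in quadriceps, and both arms can feed it. Over this list the median vector difference was -0.63 in liver, with 3 genes called higher and 15 lower under Yap1S5A, and 1.79 in quadriceps, with 12 called higher. Without Yap1S5A-labelled quadriceps replicates 1 and 2, the libraries with the most hepatocyte transcripts, 10 in place of 23 narrowed and the medians were 11.32 and 12.42. Over all genes, differences were called towards quadriceps for 22.5%. That share and the liver-high shares also stand beside the other hepatocyte lists below.

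The 18 hepatocyte transcription factors were likewise all liver-high under both vectors. Hnf4a (chromosome 2, 163547188 to 163572907), the nuclear receptor at the top of the hepatocyte network, was at 586, 609, 651 and 575 CPM in the Yap1S5A-labelled livers and 1.21, 0.431, 0.067 and 0.231 CPM in the matching quadriceps. Under GFP its values were 783, 635, 699 and 894 CPM in the GFP-labelled livers and 0.21, 0, 0.0732 and 0.284 CPM in the matching quadriceps. The tissues did not overlap under either vector, the livers of both vectors overlapped, and 1 GFP-labelled quadriceps had no count. Its log2 fold was 10.20 ± 0.40 under Yap1S5A and 12.33 ± 0.45 under GFP, and the difference of -2.13 ± 0.76 had an adjusted p of 0.025 (0.052 under the replicate block). This call was lost without Yap1S5A-labelled quadriceps replicate 1 (-1.04, adjusted p = 0.25) and without replicates 1 and 2 (-0.502, adjusted p = 0.68). The Hnf4a call was also lost without GFP-labelled quadriceps replicate 2 (-1.67, adjusted p = 0.076) or replicate 3 (-1.91, adjusted p = 0.063). Median log2 folds of the list, with genes that had no count in a group set at the 3-count bound, were 8.34 under Yap1S5A and 8.89 under GFP. The vector difference within liver had a median of -0.67, with 1 factor called higher and 12 lower. Within quadriceps its median was 1.6, with no factor called. The tissue contrast narrowed for 6 factors: Hnf4a, Cebpa (-2.14 ± 0.48, adjusted p = 0.0015), Onecut2, Ppara, Creb3l3 and Nr1i3 (CAR, a xenobiotic sensor). Nr1i3 had no count in the GFP-labelled quadriceps, and its liver level was 6.15 ± 2.79 CPM under Yap1S5A and 198 ± 49.97 CPM under GFP. Rxra, the shared partner of many nuclear receptors, was erased, from 1.09 ± 0.13 under GFP to 0.43 ± 0.13. The other 11 were kept, among them Nr5a2 and Prox1. Without quadriceps replicates 1 and 2 of Yap1S5A, 4 in place of 7 differences were called, and likewise 4 without replicate 1 alone. A count of 4 is near the 22.5% of all genes with a difference called towards quadriceps in the main fit.

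Amino acid catabolism lost more of its liver excess, and a pair of its enzymes changed sides. Under GFP all 23 listed genes were liver-high; under Yap1S5A 21 were, and Glul and Oat were quadriceps-high. The median log2 fold was 8.9 under Yap1S5A and 11.86 under GFP, and 18 differences were called, all towards quadriceps. Within liver 21 genes were called lower and 1 higher under Yap1S5A (median -1.64), and within quadriceps 8 were called higher (median 1.59). Cps1 (chromosome 1, 67123027 to 67231267), the entry enzyme of the urea cycle, was at 3930, 3590, 4942 and 2910 CPM in the Yap1S5A-labelled livers and 4.68, 2.01, 0.268 and 0.693 CPM in the matching quadriceps. In GFP-labelled tissue it was at 5868, 5239, 7063 and 6370 CPM in the GFP-labelled livers and 0.489, 0.51, 0.146 and 0.993 CPM in the matching quadriceps. It remained liver-restricted, narrowed with a difference of -2.52 ± 0.78 (adjusted p = 0.012), and all 4 Yap1S5A-labelled livers lay below all 4 GFP-labelled ones. In quadriceps, Yap1S5A-labelled replicates 1 and 2 (4.68 and 2.01 CPM) lay above every GFP-labelled library, and replicates 3 and 4 lay among them. Both arms thus fed this difference. Arg1 (arginase) narrowed by -4.60 ± 0.72 (adjusted p = 2.9e-05) and Tat (tyrosine aminotransferase) by -5.64 ± 0.69 (adjusted p = 1.7e-06). Ass1, whose transcript is abundant in liver in textbooks, had a mean of only 2.97 CPM in the GFP-labelled livers, and its value in this table is doubtful. Without quadriceps replicates 1 and 2 of Yap1S5A, 12 differences were called.

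Glul (chromosome 1, 153899929 to 153909723) encodes glutamine synthetase, which traps the ammonia left around the central vein. It was at 59, 59.9, 48.2 and 58.6 CPM in the Yap1S5A-labelled livers and 236, 237, 357 and 277 CPM in the matching quadriceps. The control values were 742, 658, 719 and 533 CPM in the GFP-labelled livers and 398, 271, 428 and 405 CPM in the matching quadriceps. Livers exceeded quadriceps under GFP and fell below them under Yap1S5A, with no overlap in either case. The log2 fold of liver over quadriceps was -2.29 ± 0.18 under Yap1S5A and 0.82 ± 0.17 under GFP, and the difference of -3.12 ± 0.25 had an adjusted p of 6.2e-09. Oat (chromosome 7, 132557475 to 132576398), ornithine aminotransferase, showed the same pattern, with 29, 27.2, 33.2 and 29.8 CPM in the Yap1S5A-labelled livers and 259, 276, 294 and 332 CPM in the matching quadriceps. Its GFP values were 682, 417, 569 and 578 CPM in the GFP-labelled livers and 246, 216, 225 and 241 CPM in the matching quadriceps. Again neither pair of tissues overlapped, and log2 folds were -3.28 ± 0.16 under Yap1S5A and 1.27 ± 0.14 under GFP, and the difference of -4.56 ± 0.21 had an adjusted p of 9.2e-12. Axin2, a feedback gene of Wnt signalling, which also marks the central vein, reversed too: 0.90 ± 0.24 under GFP and -2.94 ± 0.28 under Yap1S5A. The quadriceps arm was small for all 3, with vector differences of -0.44 ± 0.17, 0.32 ± 0.14 and 0.44 ± 0.24 (adjusted p = 0.16, 0.22 and 0.34).

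Bile acid and drug metabolism had the largest fall in median liver excess of the 6 hepatocyte lists. Of 15 bile acid genes, 14 were liver-high and 1, the phospholipid exporter Abcb4, quadriceps-high under Yap1S5A, against 15 liver-high under GFP. The medians at the bound were 7.78 and 12.06, and 13 differences were called, all towards quadriceps (6 without quadriceps replicates 1 and 2 of Yap1S5A). The vector difference had a median of -2.15 in liver, with 13 genes called lower, and 1.44 in quadriceps, with 1 called higher. Slc27a5, which activates bile acids, had 9.14 ± 0.34 and 12.06 ± 0.37, and Cyp27a1, which starts the alternative synthesis route, 0.74 ± 0.15 and 3.17 ± 0.16. Amacr, a side-chain racemase, was erased. Among the 15 genes of the P450 system all were liver-high under both vectors, yet 9 in place of 14 were at least 32-fold so. Their medians at the bound were 7.54 under Yap1S5A and 12.35 under GFP. The livers differed by a median of -2.39, with 13 genes lower under Yap1S5A. The quadriceps differed by a median of 1.93, with 2 genes called higher. The tissue contrast narrowed for 13 (9 without the 2 quadriceps libraries) and was kept for Cyp3a13 and Cyp2b10.

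Cyp2e1 (chromosome 7, 140763832 to 140774977), the ethanol- and paracetamol-oxidising P450 of the central vein, was at 224, 119.6, 67.7 and 129 CPM in the Yap1S5A-labelled livers and 29.1, 30.9, 11 and 4.85 CPM in the matching quadriceps. Under GFP the values were 6632, 4625, 3786 and 6019 CPM in the GFP-labelled livers and 6.78, 9.69, 15.4 and 29.2 CPM in the matching quadriceps. The lowest GFP-labelled liver was many times the highest Yap1S5A-labelled one, and quadriceps of both vectors overlapped. Its log2 fold was 2.83 ± 0.53 under Yap1S5A and 8.43 ± 0.68 under GFP, and the difference of -5.60 ± 0.75 had an adjusted p of 8.4e-06. Cyp2c29 showed 4.73 ± 0.55 and 13.27 ± 0.77, and Cyp3a11 7.54 ± 0.68 and 13.34 ± 0.88; these and the Cyp2d and Cyp4a genes have close relatives, so their counts are uncertain. Of 13 genes of hepatic glucose and fructose handling all were liver-high under both vectors, with medians of 7.01 and 9.13. The differences called numbered 7, all narrowed, among them Pck1, Pcx, Fbp1, Pklr, Khk and Gys2. Without Yap1S5A-labelled quadriceps replicates 1 and 2 only 1 was called, and without replicate 1 alone 4. Fabp1 (chromosome 6, 71199888 to 71205023), the liver fatty acid binding protein, was at 25.3, 21.9, 23.9 and 19.6 CPM in the Yap1S5A-labelled livers and 3.47, 1.94, 0.335 and 0.808 CPM in the matching quadriceps. Its GFP values were 2065, 1985, 1690 and 1751 CPM in the GFP-labelled livers and 0.28, 0.0638, 0.22 and 0.284 CPM in the matching quadriceps. The livers of both vectors were far apart and both lay above their quadriceps, with log2 folds of 3.76 ± 0.36 under Yap1S5A and 13.08 ± 0.52 under GFP, and the difference of -9.32 ± 0.63 had an adjusted p of 1.2e-09.

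**Figure D3:**
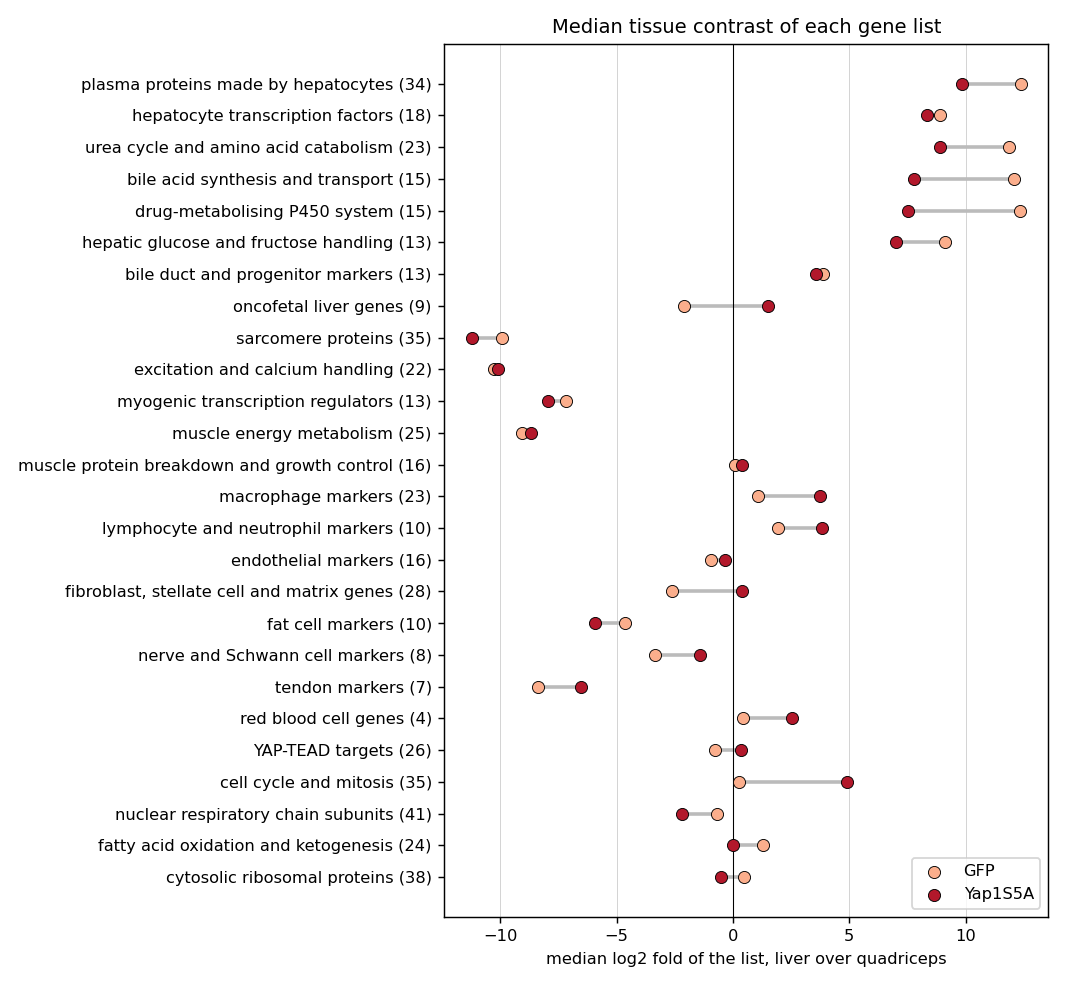
Median log2 fold of liver over quadriceps of each gene list under GFP and under Yap1S5A, with the number of genes tested in parentheses; genes with no count in a group enter at the bound set by 3 counts. The first 6 lists, of hepatocyte genes, stay right of 0 under Yap1S5A but nearer to it. The sarcomere, calcium handling, myogenic and muscle energy lists stay left of 0, and the matrix, oncofetal, YAP-TEAD and ribosomal protein lists cross it.

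The most abundant muscle genes stayed quadriceps-high, with no difference of contrasts called. The 12 quadriceps-high genes of greatest counts per kilobase were Ckm, Acta1 (skeletal actin), Tnnc2, Tnnt3 and Tnni2 (fast troponins), Atp2a1 (the calcium pump SERCA1), Mylpf and Myl1 (myosin light chains), Aldoa, Myh4 (the fast IIb myosin heavy chain), Pvalb (parvalbumin) and Tpm1 (tropomyosin). All 12 were kept, with differences of contrasts from -1.52 (Tnnt3) to 1.15 (Tpm1) and adjusted p of 0.053 or more. With SEs of 0.99 for Ckm and 1.0 for Myh4, the lack of a call does not show an equal contrast. The 12 were also chosen for a large contrast under Yap1S5A. Ckm (chromosome 7, 19411094 to 19421583) was at 8.35, 4.22, 3.43 and 20.1 CPM in the Yap1S5A-labelled livers and 32168, 48504, 42639 and 44056 CPM in the matching quadriceps. GFP-labelled tissue had it at 1.63, 18.3, 62.2 and 21.9 CPM in the GFP-labelled livers and 42903, 44714, 39449 and 50299 CPM in the matching quadriceps. Tissues stood apart without overlap under both vectors, and the liver trace was highest in GFP-labelled replicate 3, the liver with the most muscle fibre transcripts. Its log2 fold was -12.18 ± 1.10 under Yap1S5A and -10.73 ± 1.04 under GFP, and the difference of -1.44 ± 0.99 had an adjusted p of 0.25. Myh4 (chromosome 11, 67237812 to 67260447) was at 11, 6.3, 5.56 and 29.2 CPM in the Yap1S5A-labelled livers and 46548, 50734, 49658 and 40831 CPM in the matching quadriceps. The GFP libraries held 3.18, 22.9, 82.2 and 27.6 CPM in the GFP-labelled livers and 115053, 80437, 79400 and 96530 CPM in the matching quadriceps. Its quadriceps values were lower under Yap1S5A without overlap, but neither that arm (-0.98 ± 0.71, adjusted p = 0.5) nor the difference of contrasts (-0.40 ± 1.0, adjusted p = 0.78) was called.

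Of 35 sarcomere genes 34 were quadriceps-high under both vectors, 33 were kept and Neb (nebulin) widened, by -1.60 ± 0.41 (adjusted p = 0.0034). Over all genes the quadriceps-high share was 37% under Yap1S5A and 39.3% under GFP, also for the muscle lists below. Tpm3 was not called, with -1.16 ± 0.68 under Yap1S5A. The list's medians were -11.22 and -9.91, and the median difference of -1.1 was -0.14 without GFP-labelled liver replicate 3, with 2 differences called upward and 1 downward, while 6 were called downward without GFP-labelled liver replicate 1, 3 without Yap1S5A-labelled liver replicate 4, 4 without GFP-labelled quadriceps replicate 3, 5 with DESeq2 and 8 with the replicate block. All 22 genes of excitation and calcium handling were quadriceps-high under both vectors, with medians at the bound of -10.08 and -10.26. Among these, Cacnb1, Stac3 and Chrnb1 narrowed and Jph1, Chrne and Clcn1 widened. Those counts do not exceed the shares of all genes with a difference called, 25.5% towards liver and 22.5% towards quadriceps. Without GFP-labelled liver replicate 3, 7 in place of 3 narrowed. Chrnb1, a subunit of the acetylcholine receptor, moved the most of the 3, from -5.95 ± 0.24 under GFP to -1.82 ± 0.17, its liver level being 7.2 ± 1.96 CPM under Yap1S5A and 0.435 ± 0.198 CPM under GFP.

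Muscle energy metabolism kept its side in all 25 genes under both vectors, with medians at the bound of -8.67 and -9.06. The 4 that narrowed were Hk2, Gys1, Lpl and Slc25a4, and the 5 that widened were Pfkm, Adssl1, Mb (myoglobin), Cox6a2 and Cox7a1. These counts do not exceed the shares of all genes with a difference called, 25.5% towards liver and 22.5% towards quadriceps. The Pfkm call was lost under the replicate block (adjusted p = 0.1). It was also lost without Yap1S5A-labelled quadriceps replicate 2, or GFP-labelled quadriceps replicate 2 or 3. With a trend of transcript length taken out 2 widened, and 3 did without Yap1S5A-labelled quadriceps replicate 2. Without GFP-labelled liver replicate 3 the median difference was 0.3 in place of -0.41, with 5 differences called towards liver and 4 towards quadriceps. The list of muscle protein breakdown and growth control, 16 genes, had 6 liver-high and 6 quadriceps-high genes under Yap1S5A and 3 and 7 under GFP, against 44.8% and 37% of all genes under Yap1S5A and 39.2% and 39.3% under GFP, so those counts do not set the list apart. The ubiquitin ligases Fbxo32 (-6.63 ± 0.25 and -6.31 ± 0.25) and Trim63 (-11.19 ± 0.48 and -10.25 ± 0.45) were kept on the muscle side, and the growth factor Igf1 (4.36 ± 0.28 and 4.38 ± 0.28) on the liver side.

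Of 13 myogenic regulators 12 were quadriceps-high under Yap1S5A and 13 under GFP. Myod1, Myog, Myf5, Myf6 and Pax7 were kept, with at most traces in liver. Mef2a, Mef2c, Smyd1 and Tead4 were among those that changed. The list's median difference was 0.38, with 3 differences called towards liver and 1 towards quadriceps. Those counts do not exceed the 25.5% and 22.5% of all genes. Without GFP-labelled liver replicate 3 the list's median difference was 1.47, with 4 and 2 called. Mef2c (chromosome 13, 83504034 to 83667079) was at 14.2, 16.1, 11.8 and 11.7 CPM in the Yap1S5A-labelled livers and 464, 495, 423 and 413 CPM in the matching quadriceps. In GFP-labelled tissue it was at 2.97, 2.17, 2.3 and 1.84 CPM in the GFP-labelled livers and 668, 600.1, 608 and 571 CPM in the matching quadriceps. The Yap1S5A-labelled livers exceeded all GFP-labelled livers while both stayed far below muscle, and the log2 fold was -5.06 ± 0.16 under Yap1S5A and -8.04 ± 0.19 under GFP, and the difference of 2.98 ± 0.22 had an adjusted p of 2.3e-09. Mef2a narrowed as well, from -2.51 ± 0.10 to -1.04 ± 0.10. Smyd1 (chromosome 6, 71213940 to 71262281), a muscle methyltransferase needed for myofibril assembly, widened: it was at 1.43, 0.678, 1.39 and 1.005 CPM in the Yap1S5A-labelled livers and 537, 603, 543 and 513 CPM in the matching quadriceps. With GFP it was at 5.02, 3.88, 2.86 and 4.3 CPM in the GFP-labelled livers and 794, 707, 669.8 and 741 CPM in the matching quadriceps. Liver levels were lower under Yap1S5A without overlap, and the log2 fold was -8.92 ± 0.24 under Yap1S5A and -7.50 ± 0.22 under GFP, and the difference of -1.42 ± 0.27 had an adjusted p of 0.00024. Tead4 (chromosome 6, 128227143 to 128300813), a DNA-binding partner of Yap1, was erased. It was at 10.52, 11.6, 12 and 14.3 CPM in the Yap1S5A-labelled livers and 11.8, 11.5, 9.65 and 12.6 CPM in the matching quadriceps. Its GFP values were 0.353, 0.0657, 0.419 and 0.384 CPM in the GFP-labelled livers and 6.22, 6.63, 5.42 and 5.18 CPM in the matching quadriceps. Livers and quadriceps overlapped under Yap1S5A and did not under GFP, and the log2 fold was 0.09 ± 0.17 under Yap1S5A and -4.25 ± 0.28 under GFP, and the difference of 4.34 ± 0.33 had an adjusted p of 4e-09.

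Genes of tissue-specific microRNAs, picked after their values were seen, kept their tissue in raw counts summed over 4 libraries. Mir122, the liver microRNA gene, had 1002 counts in the Yap1S5A-labelled livers and 2 in the quadriceps, a ratio of 394 per scaled count (counting interval 109 to 3.26e+03). Under GFP it had 441 and 0 counts, at least 150-fold against a floor of 3 counts over the group. Mir133a-2, a muscle microRNA gene, had 353 counts in the Yap1S5A-labelled quadriceps and 0 in the livers, at least 150-fold, and 276 and 0 under GFP, at least 90.3-fold. Mir1a-1 had 69 and 0, at least 29.3-fold, and 27 and 0, at least 8.84-fold.

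Tissue isozymes gave the same question in pairs: for 24 enzymes or carriers, the share of the muscle form in the sum of both forms, per kilobase of exon. The muscle form was called quadriceps-high in 24 of 24 pairs under both vectors, and the liver form liver-high in 21 of 24, the exceptions being Cox7a2, Atp2a2 and Ppp1r3c under both. The muscle form held under 50% in the livers in 22 pairs under Yap1S5A and 23 under GFP, and over 50% in the quadriceps in 22 under each. Pyruvate kinase moved far in liver. Pkm, the form of muscle and of dividing cells, took 66, 67.3, 54.8 and 75.9% of the pair with Pklr in the Yap1S5A-labelled livers. In the GFP-labelled livers it took 2.35, 3.78, 3.56 and 4.87%, far below. Pkm (chromosome 9, 59656368 to 59679375) was at 57.9, 77.7, 68.2 and 72.3 CPM in the Yap1S5A-labelled livers and 1811, 2537, 2122 and 2077 CPM in the matching quadriceps. Control libraries gave 9.12, 13.9, 16.7 and 11 CPM in the GFP-labelled livers and 3494, 3252, 2814 and 2982 CPM in the matching quadriceps. It stayed quadriceps-high without overlap, narrowed by 3.00 ± 0.31 (adjusted p = 2e-07), and counts per gene do not separate its splice forms.

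In the same measure Lpl (lipoprotein lipase) took 50.6 ± 3.4% of the pair with Lipc in Yap1S5A-labelled livers and 4.87 ± 2.1% in GFP-labelled livers (mean ± SD, n = 4). Slc25a4, the muscle ADP/ATP carrier, took 18.9 ± 4.3% and 1.64 ± 0.6%, Hk2 7.21 ± 2.4% and 0.302 ± 0.14%, and Gys1 7.38 ± 0.76% and 1.16 ± 0.18%. Their tissue contrasts narrowed, by 2.04 ± 0.53, 3.19 ± 0.34, 3.66 ± 0.24 and 0.79 ± 0.23 (adjusted p = 0.0043, 2.8e-07, 5.4e-10 and 0.0076). The acetyl-CoA carboxylases went the other way. Acacb, which makes the malonyl-CoA that restrains mitochondrial fat import, took 10.9 ± 1.7% of the pair with Acaca in Yap1S5A-labelled livers and 73.9 ± 2.6% in GFP-labelled livers. Its level was 9.29, 8.82, 12.5 and 4.4 CPM in the Yap1S5A-labelled livers and 749.8, 786, 718 and 719 CPM in the matching quadriceps. Under GFP it was 414, 373, 434 and 230.1 CPM in the GFP-labelled livers and 685, 610.5, 628 and 580.4 CPM in the matching quadriceps. All Yap1S5A-labelled livers lay far below the GFP-labelled ones, and the log2 fold was -6.41 ± 0.29 under Yap1S5A and -0.79 ± 0.22 under GFP, and the difference of -5.62 ± 0.34 had an adjusted p of 2.6e-10.

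**Figure D4:**
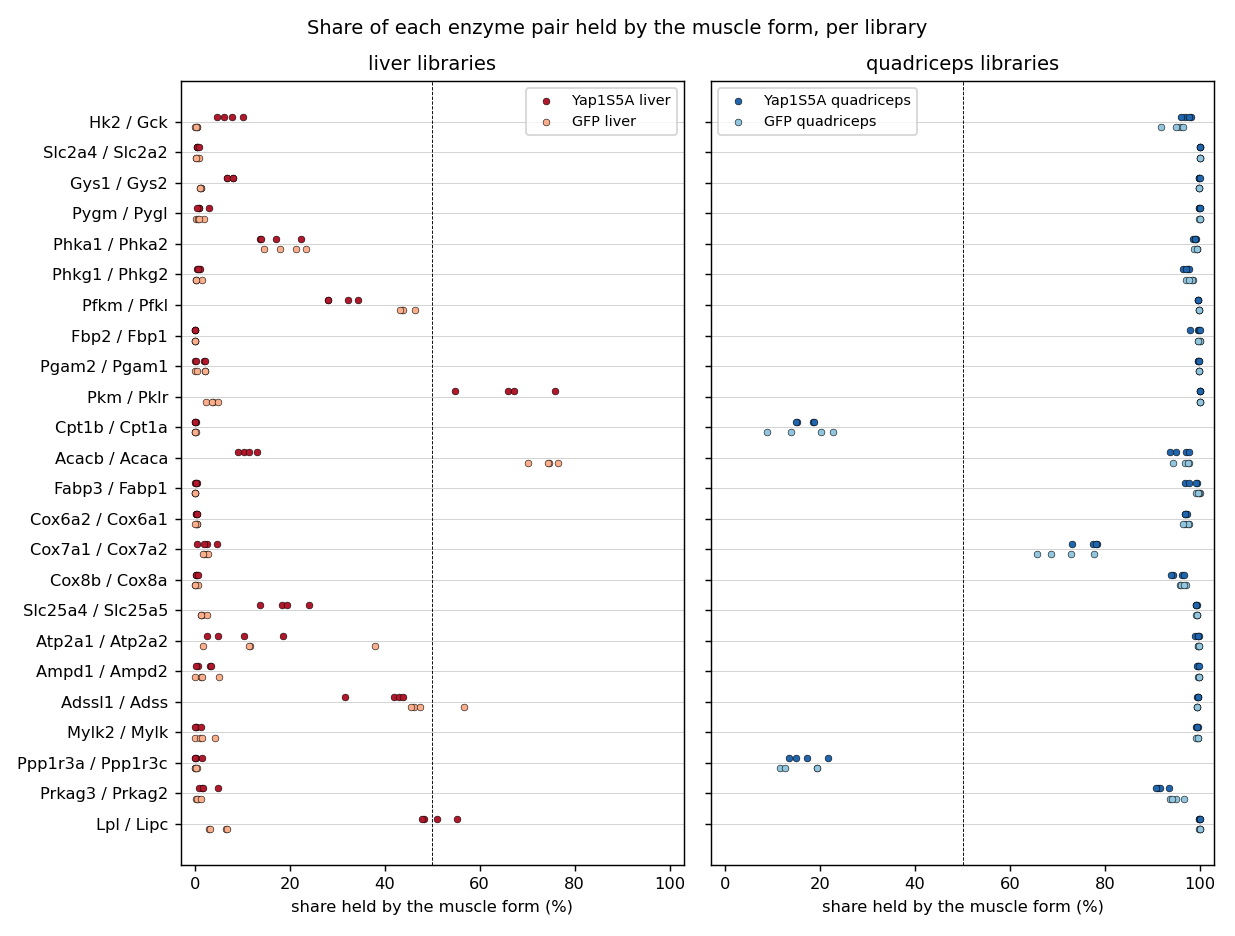
Share of the muscle form in each of 24 isozyme pairs (muscle form / liver form), from levels per kilobase, in percent; each point is 1 library, with livers in the left panel and quadriceps in the right. In liver, Pkm and Lpl sit near or above the dashed 50% line under Yap1S5A and near 0 under GFP, and Acacb sits far lower under Yap1S5A, while in quadriceps the points of both vectors lie close together.

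Respiratory chain genes gained tissue difference together. All 41 nuclear-encoded respiratory chain subunits were quadriceps-high under Yap1S5A and 33 were under GFP, with medians of -2.2 and -0.7. All 41 differences were called towards quadriceps, with 20 genes new and 21 widened, against differences towards quadriceps in 22.5% of all genes. The quadriceps-high share of all genes was 37% under Yap1S5A and 39.3% under GFP. The change lay in the liver arm, where all 41 were lower under Yap1S5A, and the median vector difference was -1.49 in liver and 0.01 in quadriceps. With a trend of transcript length taken out 33 differences were called and the median difference was -0.78 in place of -1.49. Uqcrq (chromosome 11, 53428948 to 53430831), a subunit of complex III, was at 10.4, 20.8, 14.9 and 18.4 CPM in the Yap1S5A-labelled livers and 97.8, 115, 116 and 158 CPM in the matching quadriceps. Its GFP values were 132, 94.9, 192 and 89 CPM in the GFP-labelled livers and 72, 94.1, 121 and 106 CPM in the matching quadriceps. Only the Yap1S5A-labelled livers stood apart, and the log2 fold was -2.91 ± 0.26 under Yap1S5A and 0.37 ± 0.24 under GFP, and the difference of -3.28 ± 0.35 had an adjusted p of 4.8e-07. Got1, the cytosolic aspartate aminotransferase of the malate shuttle, was new in the same direction (-2.90 ± 0.30 and -0.37 ± 0.28), as were the ATP synthase subunit Atp5k, the mitophagy receptor Bnip3, Ndufs6, Eci1 and the mitochondrial ribosomal protein Mrpl14.

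Lpin1 (chromosome 12, 16535669 to 16589770), a phosphatidate phosphatase of lipid synthesis, was at 35.1, 70.2, 70.05 and 64.5 CPM in the Yap1S5A-labelled livers and 535, 550.2, 582 and 524 CPM in the matching quadriceps. With the GFP vector it stood at 713, 216, 809 and 218 CPM in the GFP-labelled livers and 669, 489.8, 537 and 607 CPM in the matching quadriceps. The Yap1S5A-labelled livers were below all their quadriceps, while GFP-labelled tissues overlapped, and the log2 fold was -3.19 ± 0.38 under Yap1S5A and -0.24 ± 0.34 under GFP, and the difference of -2.96 ± 0.50 had an adjusted p of 9.4e-05. Of 24 genes of fatty acid oxidation and ketogenesis 20 were liver-high and 2 quadriceps-high under GFP, against 39.2% and 39.3% of all genes. Under Yap1S5A 9 and 11 were. Those Yap1S5A counts are near the 44.8% and 37% of all genes and do not set the list apart. The medians were 1.3 and 0.02. Differences were called towards quadriceps for 21 and towards liver for 1, Oxct1, the enzyme that lets tissues other than liver burn ketone bodies, which narrowed from -7.17 ± 0.24 to -3.78 ± 0.20. Slc25a20, Acadm, Acadvl and Etfb reversed. Over all genes, differences were called towards quadriceps for 22.5% and towards liver for 25.5%. Acadvl (chromosome 11, 70010183 to 70015428), which starts the oxidation of very long chains, was at 241, 169, 182 and 168 CPM in the Yap1S5A-labelled livers and 458, 431, 350.2 and 425 CPM in the matching quadriceps. Its levels under GFP were 534, 403, 572 and 552 CPM in the GFP-labelled livers and 238, 362, 404 and 264 CPM in the matching quadriceps. All livers were below all quadriceps under Yap1S5A, while under GFP the lowest liver and the highest quadriceps were nearly equal, with a log2 fold of -1.13 ± 0.18 under Yap1S5A and 0.70 ± 0.18 under GFP, and the difference of -1.83 ± 0.26 had an adjusted p of 9.1e-06. Cpt1a, the gate of mitochondrial fat import, stayed liver-high, with a log2 fold of 5.34 ± 0.22 under Yap1S5A.

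Cytosolic ribosomal protein genes were 23 liver-high of 38 under GFP and 5 liver-high and 23 quadriceps-high under Yap1S5A, with medians of 0.48 and -0.5. This pattern moved with transcript length: with a length trend taken out 17 were liver-high and 8 quadriceps-high under Yap1S5A, the median was 0.22, and 7 in place of 30 differences were called towards quadriceps and 3 towards liver. Over all genes in the main fit, 44.8% were liver-high and 37% quadriceps-high under Yap1S5A, and 39.2% were liver-high under GFP. Differences were called towards quadriceps for 22.5% of all genes.

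Matrix genes moved towards liver, and some changed sides. Of 28 fibroblast, stellate cell and matrix genes, 24 were quadriceps-high and 3 liver-high under GFP, against 39.3% and 39.2% of all genes. Under Yap1S5A 12 were liver-high and 8 quadriceps-high. Those Yap1S5A counts are near the 44.8% and 37% of all genes and do not set the list apart. The medians were -2.61 and 0.4; 8 genes reversed and 4 were erased. The difference was called towards liver for 23 and towards quadriceps for 1, the proteoglycan Dcn, against 25.5% and 22.5% of all genes. Within liver 24 were higher under Yap1S5A and 1 lower, and within quadriceps 7 were lower. The summed level of the list stayed higher in muscle, at 3271 to 5876 CPM in the Yap1S5A-labelled livers and 6297 to 7063 CPM in their quadriceps. That sum includes Des, a gene of muscle fibres with the highest mean level in the list. Col3a1 (chromosome 1, 45311538 to 45349706), the fibrillar type III collagen, was at 593, 719, 491 and 684 CPM in the Yap1S5A-labelled livers and 144, 202, 145 and 119.9 CPM in the matching quadriceps. Under GFP it was at 34.5, 55.8, 36.6 and 36.6 CPM in the GFP-labelled livers and 275, 374, 301 and 322 CPM in the matching quadriceps. The order of the tissues turned without any overlap, with a log2 fold of 2.02 ± 0.19 under Yap1S5A and -2.96 ± 0.20 under GFP, and the difference of 4.98 ± 0.27 had an adjusted p of 6.7e-11. Col4a1, Col5a1, Col5a2, Col6a3, the crosslinking enzyme Loxl2, Timp1 and Vim (vimentin) reversed too, and Col4a2, Lum, Acta2 and Sparc were erased. Des (desmin), which muscle fibres make, and the stellate cell genes Lrat and Reln were kept.

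Plau (chromosome 14, 20836662 to 20843388), the urokinase that activates plasminogen, was erased. It was at 13.6, 17.5, 13.7 and 13.8 CPM in the Yap1S5A-labelled livers and 16.4, 13.8, 13.7 and 16.7 CPM in the matching quadriceps. The GFP values were 1.41, 0.723, 1.19 and 0.615 CPM in the GFP-labelled livers and 22.4, 21, 25.3 and 28.6 CPM in the matching quadriceps. The tissues overlapped under Yap1S5A and stood far apart under GFP, with a log2 fold of -0.05 ± 0.15 under Yap1S5A and -4.61 ± 0.21 under GFP, and the difference of 4.56 ± 0.26 had an adjusted p of 1.1e-10. Among the erased quadriceps-high genes of largest difference were also Pla2g7 (a lipoprotein-bound phospholipase), Olfml2b, Emp1, Spag5, Myo5a (an actin motor) and S100a6. Endothelial markers gave smaller differences: of 16, 5 were liver-high and 7 quadriceps-high under Yap1S5A, against 3 and 10 under GFP, with medians of -0.32 and -0.94 and 7 differences called towards liver. Over all genes 44.8% and 37% were called under Yap1S5A, so the Yap1S5A counts do not set these markers apart. Differences were called towards liver for 25.5% of all genes. Their summed level was 663 to 775 CPM in Yap1S5A-labelled livers and 388 to 421 CPM in GFP-labelled livers.

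Macrophage markers became liver-sided as a group. All 23 were liver-high under Yap1S5A, and 16 were liver-high and 3 quadriceps-high under GFP, with medians of 3.74 and 1.06. Differences towards liver were called for 20, against 25.5% of all genes. The liver-high share of all genes was 44.8% under Yap1S5A and 39.2% under GFP. Both arms rose: all 23 were higher in liver (median 3.63) and 16 in quadriceps (median 1.18) under Yap1S5A. The summed level was 3247 to 3629 CPM in Yap1S5A-labelled livers, 197 to 346.6 CPM in GFP-labelled livers, 255.5 to 435.2 CPM in Yap1S5A-labelled quadriceps and 91.7 to 165.7 CPM in GFP-labelled quadriceps. Itgam (chromosome 7, 128062640 to 128118491), the CD11b integrin of myeloid cells, was at 67.2, 81.3, 81.6 and 82.8 CPM in the Yap1S5A-labelled livers and 5.89, 4.45, 3.75 and 4.39 CPM in the matching quadriceps. Under GFP it was at 0.707, 0.657, 1.32 and 1.15 CPM in the GFP-labelled livers and 2.17, 3.7, 2.85 and 3.33 CPM in the matching quadriceps. The order of the tissues turned without overlap, with a log2 fold of 4.07 ± 0.17 under Yap1S5A and -1.66 ± 0.24 under GFP, and the difference of 5.73 ± 0.29 had an adjusted p of 2.6e-11. Lyz2 (lysozyme) and Ccr2 (the monocyte chemokine receptor) reversed as well, and Csf1r, the receptor for the growth factor Csf1, went from 0.54 ± 0.25, not called, to 3.62 ± 0.26. Of the Kupffer cell markers, Clec4f and Marco had no count in a group, and Vsig4 and both of these were kept on the liver side.

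Csf1 (chromosome 3, 107741048 to 107760469), which keeps macrophages alive, was new on the liver side. It was at 163, 193, 195 and 224 CPM in the Yap1S5A-labelled livers and 14.7, 12.7, 11.4 and 8.08 CPM in the matching quadriceps. The GFP-labelled libraries were at 8.84, 13.1, 7.95 and 12.8 CPM in the GFP-labelled livers and 8.88, 13.1, 9.22 and 11.3 CPM in the matching quadriceps. Only the Yap1S5A-labelled livers stood above the rest, and the log2 fold was 4.04 ± 0.20 under Yap1S5A and -0.00 ± 0.19 under GFP, and the difference of 4.04 ± 0.27 had an adjusted p of 8.1e-10. Of 10 lymphocyte and neutrophil markers tested, 10 were liver-high under Yap1S5A and 8 under GFP, and 3 differences towards liver were called, against 25.5% of all genes: Ptprc (CD45, 2.51 ± 0.39), Csf3r (1.97 ± 0.71) and Mmp9 (4.07 ± 0.54), with adjusted p of 2.9e-05, 0.026 and 5e-06. Fat cell markers numbered 8 quadriceps-high of 10 under Yap1S5A and 7 under GFP, and 4 differences were called towards quadriceps (median of the list -2.02). Their summed level in livers was 241 to 919 CPM under Yap1S5A and 3926 to 15187 CPM under GFP, mostly Scd1, a fatty acid desaturase that liver also makes, at 659 ± 307 and 10064 ± 4784 CPM. Adipoq and Lep, which define fat cells, had at most traces in any liver. Nerve markers were quadriceps-high for 6 of 8 under Yap1S5A and 8 under GFP, and 5 differences were called towards liver (median of the list 2.19): Mbp, Pmp22, Prx, Egr2 and Mag. All 7 tendon markers were quadriceps-high under both, with no difference called. Of 9 red blood cell genes 4 were tested, of which 3 were liver-high under Yap1S5A. Over all genes the liver-high share was 44.8% under Yap1S5A, and the quadriceps-high share was 37% under Yap1S5A and 39.3% under GFP. Differences were called towards liver for 25.5% and towards quadriceps for 22.5% of all genes.

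Cell division genes separated the tissues under Yap1S5A and hardly did under GFP. Of 35 listed, 34 were liver-high under Yap1S5A, the exception being the mitotic kinase Aurka, which was not called; under GFP 6 were liver-high and 7 quadriceps-high. The medians were 4.89 and 0.25, with 32 differences towards liver, against 25.5% of all genes. Of all genes 44.8% were liver-high under Yap1S5A, and 39.2% liver-high and 39.3% quadriceps-high under GFP. Within liver 33 were higher under Yap1S5A, and within quadriceps 4 were lower. Mki67 (chromosome 7, 135689788 to 135716379), the proliferation antigen Ki-67, was at 77.5, 92.7, 103 and 94.1 CPM in the Yap1S5A-labelled livers and 0.66, 0.431, 0.268 and 0.346 CPM in the matching quadriceps. With GFP it was at 0.636, 1.71, 0.698 and 0.691 CPM in the GFP-labelled livers and 0.0699, 0.957, 0.439 and 0.496 CPM in the matching quadriceps. The Yap1S5A-labelled livers stood far above the other 12 libraries, and the log2 fold was 7.70 ± 0.31 under Yap1S5A and 0.91 ± 0.44 under GFP, and the difference of 6.79 ± 0.66 had an adjusted p of 1.1e-07. Racgap1 (chromosome 15, 99620496 to 99651656), a regulator of cytokinesis, reversed. It was at 17.5, 25.5, 21.9 and 18.5 CPM in the Yap1S5A-labelled livers and 1.43, 1.005, 1.14 and 1.73 CPM in the matching quadriceps. Under GFP its levels were 0.0707, 0.0657, 0 and 0.154 CPM in the GFP-labelled livers and 3.77, 2.42, 1.83 and 2.06 CPM in the matching quadriceps. Muscle had the higher level under GFP and liver under Yap1S5A, and the log2 fold was 3.95 ± 0.25 under Yap1S5A and -5.02 ± 0.46 under GFP, and the difference of 8.97 ± 0.49 had an adjusted p of 6.5e-11. Kif20a, Tpx2 and Mcm2 also reversed, Rrm1 and Aurka were erased, and 7 were new: Kif11, Mcm3, Mcm4, Mcm5, Mcm6, Mcm7 and Pcna.

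Of 26 YAP-TEAD target genes tested, 12 were liver-high and 9 quadriceps-high under Yap1S5A, and 9 and 15 under GFP. The Yap1S5A counts are near the background of 44.8% and 37% of all genes, and the differences below are read against 25.5% and 22.5%. The medians were 0.33 and -0.79; 16 differences were called towards liver and 2 towards quadriceps, Axin2 and Fgf1. Within liver 18 were higher and 2 lower under Yap1S5A (median 1.63), and within quadriceps 2 were called higher. Ctgf, the matricellular growth factor Ccn2, reversed: its level was 158 ± 25.3 CPM in livers labelled Yap1S5A and 27.5 ± 4.66 CPM in their quadriceps, against 6.89 ± 2.39 and 23.1 ± 5.97 CPM under GFP (difference 4.26 ± 0.32, adjusted p = 4.5e-09). Axl, Lats2, Myof and Wtip reversed with it, towards liver. Cyr61 was not called in the difference (0.74 ± 0.40, adjusted p = 0.14), with 41.1 ± 11.6 CPM in liver and 44.1 ± 5.78 CPM in quadriceps under Yap1S5A. Amotl1 and Tead1 stayed quadriceps-high and narrowed.

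Of 9 oncofetal liver genes tested, 6 were liver-high and 2 quadriceps-high under Yap1S5A, against 44.8% and 37% of all genes. Under GFP 2 and 5 were, against 39.2% and 39.3%, and 8 differences were called towards liver, against 25.5%. All 9 were higher in liver under Yap1S5A than under GFP (median 3.8). Gpc3 (chromosome X, 52272427 to 52613974), the glypican of fetal liver, was at 206, 346, 356 and 432 CPM in the Yap1S5A-labelled livers and 3.91, 4.52, 5.22 and 3.17 CPM in the matching quadriceps. Under GFP it was at 1.77, 2.5, 0.419 and 0.154 CPM in the GFP-labelled livers and 5.66, 6.25, 5.2 and 4.33 CPM in the matching quadriceps. The tissues changed places without overlap, with a log2 fold of 6.32 ± 0.38 under Yap1S5A and -2.11 ± 0.43 under GFP, and the difference of 8.43 ± 0.55 had an adjusted p of 3.9e-09. The imprinted RNA H19 stayed quadriceps-high and narrowed, from -7.36 ± 0.50 to -2.44 ± 0.38. Afp (alpha-fetoprotein) had a mean of 49.7 CPM in the Yap1S5A-labelled livers and no count in either quadriceps group. Bile duct and progenitor markers were 10 liver-high of 13 under Yap1S5A and 8 under GFP, against 44.8% and 39.2% of all genes. Their median log2 folds were 3.57 and 3.89, and 5 differences were called towards liver, against 25.5%. Spp1 (chromosome 5, 104435111 to 104441053), the secreted phosphoprotein osteopontin of bile duct cells and macrophages, was at 1258, 1574, 1210 and 1593 CPM in the Yap1S5A-labelled livers and 1.54, 1.005, 0.603 and 1.1 CPM in the matching quadriceps. The values under GFP were 36.3, 39.1, 23.4 and 20.9 CPM in the GFP-labelled livers and 0.489, 2.36, 0.805 and 0.142 CPM in the matching quadriceps. Its liver excess widened, with a log2 fold of 10.34 ± 0.46 under Yap1S5A and 4.93 ± 0.41 under GFP, and the difference of 5.41 ± 0.64 had an adjusted p of 1.4e-06; Sox9 widened as well, and Krt8 and Krt18 were kept.

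Several genes that were liver-high under GFP were erased. Retsat (chromosome 6, 72598628 to 72607488), a retinol saturase, was at 67.2, 44.9, 62 and 47.8 CPM in the Yap1S5A-labelled livers and 31.8, 35, 32.9 and 38.4 CPM in the matching quadriceps. Under GFP it was at 396, 462, 467 and 463 CPM in the GFP-labelled livers and 27.9, 34.4, 31.9 and 35.7 CPM in the matching quadriceps. Livers still exceeded quadriceps under Yap1S5A, by under 2-fold, and the log2 fold was 0.68 ± 0.14 under Yap1S5A and 3.78 ± 0.15 under GFP, and the difference of -3.10 ± 0.19 had an adjusted p of 3.8e-10. Tbx3 (chromosome 5, 119670862 to 119684724), a T-box transcription factor of the central vein region, was at 4.42, 3.44, 3.83 and 5.07 CPM in the Yap1S5A-labelled livers and 4.84, 5.46, 4.82 and 6.12 CPM in the matching quadriceps. Its GFP values were 53.3, 39.8, 25.5 and 57.6 CPM in the GFP-labelled livers and 4.82, 5.23, 4.9 and 2.55 CPM in the matching quadriceps. The tissues overlapped under Yap1S5A and did not under GFP, with a log2 fold of -0.34 ± 0.24 under Yap1S5A and 3.33 ± 0.24 under GFP, and the difference of -3.67 ± 0.34 had an adjusted p of 5.2e-08. Phyh (a peroxisomal hydroxylase), Hint2, Ldhd (a lactate dehydrogenase), Sod1 (superoxide dismutase) and the transcripts AI317395 and 0610011F06Rik were the other liver-high genes of largest difference that were erased.

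Among the reversed genes of largest difference, those that became liver-high were Lrtm2, Fgfbp1, Racgap1, Gpc3, Tpx2, Itga4, Anln, Itgam, Pla2g7 and Bicc1, of which Pla2g7 also met the definition of erased and is counted there. Lrtm2, a leucine-rich repeat membrane protein, ran from -6.71 ± 0.57 under GFP to 4.80 ± 0.32, and Fgfbp1, a carrier of fibroblast growth factors, from -8.15 ± 0.61 to 3.20 ± 0.29. Those that became quadriceps-high were Lhpp, Oat, G0s2 (an inhibitor of fat breakdown), Cyp26b1 (a retinoic acid hydroxylase), Me1 (malic enzyme), Axin2, Endog (a mitochondrial nuclease), Slc6a9 (a glycine transporter), Glul and Cyp2u1. Lhpp, a phosphatase, showed -3.65 ± 0.24 under Yap1S5A and 1.52 ± 0.19 under GFP, with a difference of -5.17 ± 0.31 (adjusted p = 2.6e-10). New on the liver side with the largest differences were Col4a5 (a basement membrane collagen), Mcm5, Plek, Klhl13, Csf1, Efemp1, Fads3 and Ms4a6c. Col4a5 went from -0.25 ± 0.23 to 4.94 ± 0.23 and Klhl13 from 0.18 ± 0.21 to 4.56 ± 0.19.

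**Figure D5:**
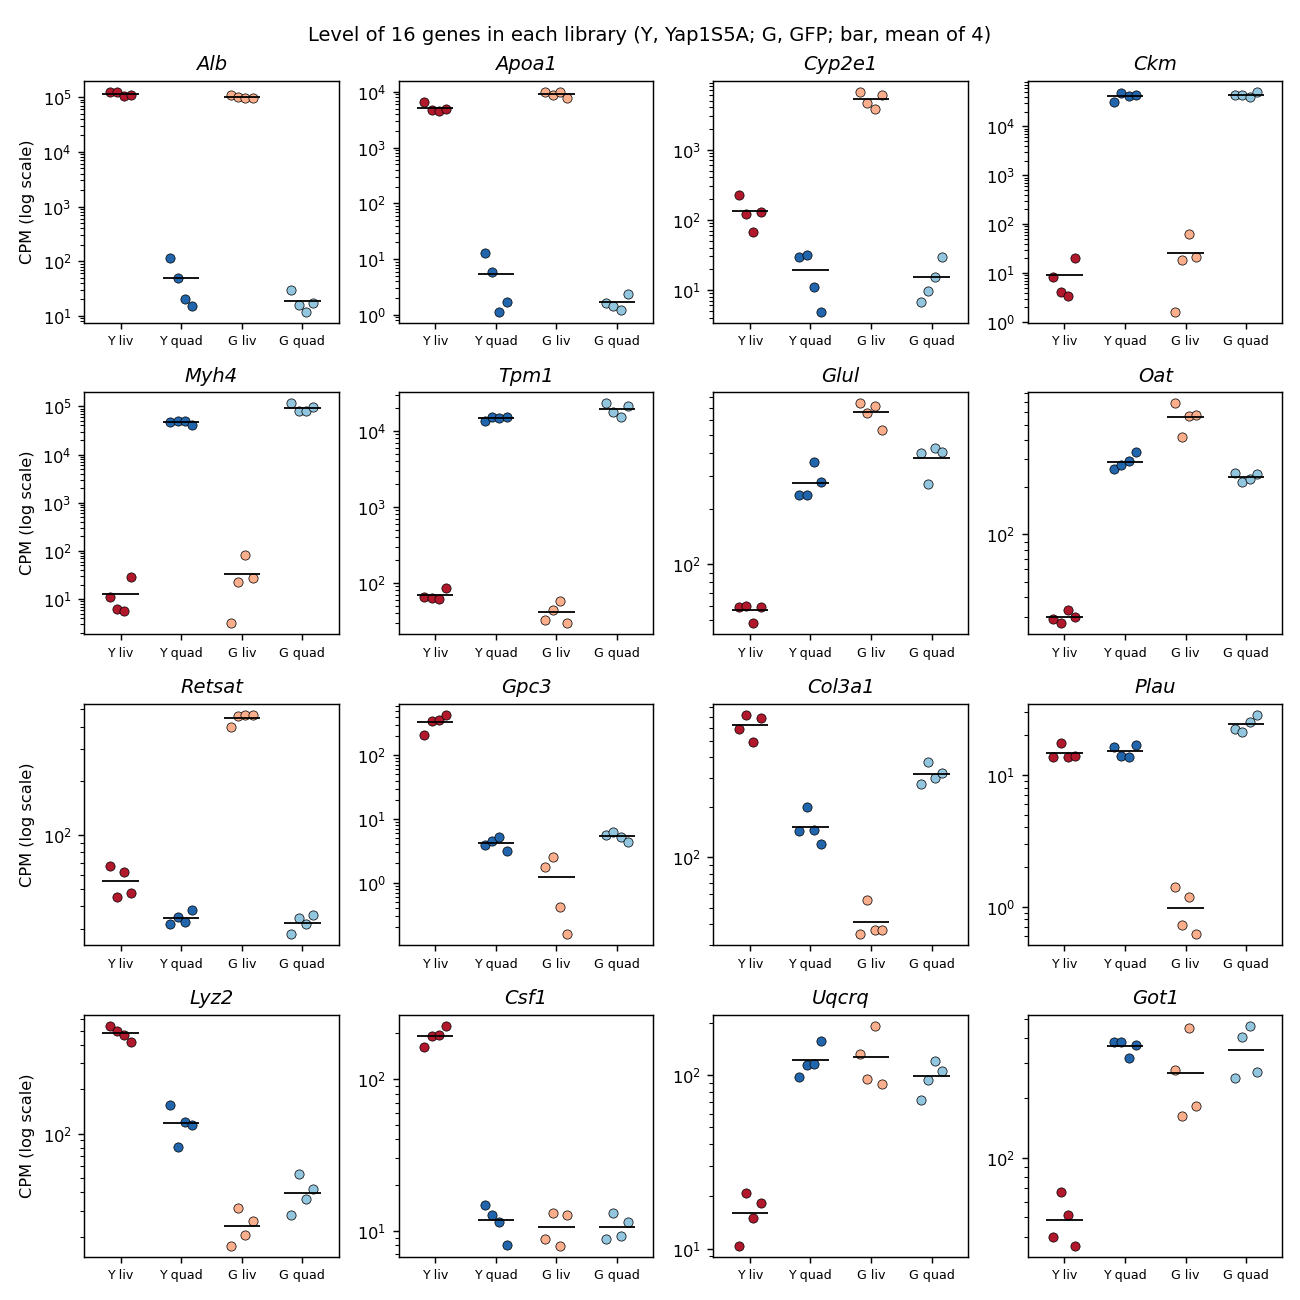
Level of 16 genes in each of the 16 libraries, in CPM on a log axis; each point is 1 library and each bar the mean of 4. Alb, Apoa1, Ckm, Myh4 and Tpm1 keep their tissue under both vectors, Glul, Oat, Gpc3, Col3a1 and Lyz2 change the order of the tissues, Plau differs between the tissues under GFP alone, and Csf1, Uqcrq and Got1 stand apart in Yap1S5A livers.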

How the data were processed

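Counts of reads per gene in 16 total RNA libraries were read from the authors' deposited table, 1 column per library, with gene symbols and exon coordinates. Per the submitters' processing notes, FastQC 0.11.5, STAR 2.4.2a, featureCounts of Subread 1.5.0 and build mm10 were used; per the labels' protocols, libraries came from the Ion Total RNA-Seq kit v2. The strand setting and the filter behind the 13701 genes are stated by none of the sources at hand, so overlapping and antisense genes were not told apart. The deposited table also holds a scaled signal per gene, made by the authors from the counts, which served only to recover library sizes as an alternative scaling.

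Groups follow the sample titles. Nothing in the labels states that replicates are separate mice, and p-values then measure only the spread between these samples. In a sample sheet deposited with the table, the liver and quadriceps libraries of the same vector and replicate number carry the same ID number; it does not say that this number is a mouse, so both tissues may come from the same animals. Chi-square over degrees of freedom between replicates ran from 12.2 to 63.7, so none were merged. The members and gene lists were chosen with earlier results of these data known. Some members of the lists enter the counts and are not reported by name here.

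All 16 libraries entered 1 fit in edgeR 4.0.16 (R 4.3.3): filterByExpr, TMM factors, robust glmQLFit and glmQLFTest, contrasts for each vector and for their difference, Benjamini-Hochberg adjustment over 13669 genes at 0.05. An SE is the log2 fold over the square root of F. A group with no count was given a floor of 3 counts, and intervals and floors cover counting error only. Levels are CPM with TMM sizes. The common biological coefficient of variation was 0.175. Named genes were the 12 of greatest counts per kilobase in each direction among those at least 32-fold apart without overlap, the 10 reversed and 8 erased or new genes in each direction with the largest difference and at least 5 CPM, the 3 of highest level in each list, members behind small counts, isozyme pairs and Yap1; other members were added for their role in a list, after values were seen. Symbols of 21 genes had turned into dates and are not named. Alternatives were other scalings, no filter, DESeq2 1.42.0, the replicate block, each vector's 8 libraries alone, Rn45s left out, a length trend and each library left out. Scripts were tested on simulated data. Python 3.11.15 with pandas 2.3.3 and numpy 2.4.6 drew sequences and tables, and matplotlib 3.10.9 the figures. Of 13648 tested genes with a usable symbol 79.7% matched a RefSeq promoter, so no promoter comparison between gene sets was made.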

Additional observations from a re-analysis of the deposited data

Results flagged for a closer look

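Of 184 groups of 4 libraries that the text reports and that were examined for a library far from the others, 14 (7.61%) held one; chance gives about 1 in 20. In the Yap1S5A-labelled livers the lowest library stood apart for Glul (48.2 CPM, the others 58.6 to 59.9), Itgam (67.2 CPM, the others 81.3 to 82.8), Lpin1 (35.1 CPM, the others 64.5 to 70.2), the summed endothelial markers (663 CPM, the others 764 to 775) and the summed tendon markers (1.82 CPM, the others 2.71 to 2.78), and the highest for Plau (17.5 CPM, the others 13.6 to 13.8). All of these but Glul and Plau were replicate 1. In the GFP-labelled livers it was replicate 1 for Retsat (396 CPM, the others 462 to 467) and replicate 2 for Mki67 (1.71 CPM, the others 0.636 to 0.698) and Col3a1 (55.8 CPM, the others 34.5 to 36.6). Among Yap1S5A-labelled quadriceps, replicate 4 had the least Rn45s (6.13% of counts, the others 15 to 16.8%) and replicate 2 the most red blood cell transcripts (76.7 CPM, the others 66.7 to 68.3). Among GFP-labelled quadriceps, Tbx3 was lowest in replicate 4 (2.55 CPM, the others 4.82 to 5.23), summed matrix genes highest in replicate 2 (7325 CPM, the others 6178 to 6322) and red blood cell transcripts highest in replicate 1 (99 CPM, the others 90.7 to 91.2).

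The tissue contrast differed between the vectors, by the interaction term of the edgeR fit, in 3481 genes towards liver and 3075 towards quadriceps.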

How the results depend on the processing

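Calling contrasts erased or new only when the 95% interval lay within 0.5 in place of 1 log2 unit left 56 liver-high and 69 quadriceps-high erased genes and 34 liver-high and 97 quadriceps-high new ones. Every other count over all genes stayed within 1.5 times its value under all alternatives run. Leaving out 1 library at a time gave 5645 to 6274 liver-high and 4803 to 5378 quadriceps-high genes under Yap1S5A, 5244 to 5546 and 5188 to 5363 under GFP, and 2820 to 3545 differences towards liver and 2713 to 3890 towards quadriceps. The lowest count towards liver was without Yap1S5A-labelled liver replicate 2, the highest towards quadriceps without replicate 1. Differences towards liver made up 53.1% of calls, 46.9% with RLE factors, 47.1% with DESeq2 and 57% with upper-quartile factors, and leaving out Yap1S5A-labelled liver replicate 1 or 2 moved the median difference by -0.15. Upper-quartile factors moved the median contrast by -0.11 under Yap1S5A and -0.18 under GFP.

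Of the values of single named genes, 14450 kept direction and side of the threshold, 132 lost a call and 119 gained one. Another 154 changed sign with no call in either fit, and 3 changed sign where a call was involved: Ptprb under GFP (0.256, adjusted p = 0.041, length trend taken out), and the differences of Hpx (0.0061, adjusted p = 1, without Yap1S5A-labelled quadriceps replicates 1 and 2, chosen after seeing the data) and Cox7a1 (0.081, adjusted p = 0.88, length trend taken out). The causes were not tested.

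The tissues of a vector share replicate numbers, and same-numbered libraries share an ID number in the deposited sample sheet, which is not stated to be an animal. Their deviations from group means correlated from -0.0089 to 0.087 for the same number, above 0.1 in no pair. For different numbers the range was -0.1 to 0.075. Yap1S5A-labelled livers 1, 2 and 4 and GFP-labelled livers 2 and 3 correlated best with the quadriceps of their own number. The other livers did not. The main fit has no block, so it makes no use of any pairing. The replicate block gave 3325 differences towards liver and 2941 towards quadriceps and moved no count over all genes by over 1.5 times; of 193 named genes, 188 kept their side of the threshold in the difference, C3, Hpx, Hnf4a and Pfkm lost the call and Adss gained it; among the lists, sarcomere differences called towards quadriceps rose from 1 to 8.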
